A study of Mus musculus with 6 samples.

Results

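The genes described here are 10 markers of dividing cells (Mki67, Top2a, Ccnb1, Ccnb2, Cdk1, Birc5, Mcm2, Mcm5, Pcna and Rrm2), looked up by symbol in a table of 19445 loci measured by RNA-Seq in inguinal white adipose tissue (iWAT). Each was taken from the row that carries its symbol, and where a symbol had several rows from the row with the highest mean. Of the 10 genes, 9 had a row of their own, and 8 of these were among the 11692 loci with a mean above 1 FPKM in at least 1 genotype, which were the loci tested. FPKM (fragments counted for a transcript, scaled to its length in kilobases and to the mapped reads of the library) allows levels of different genes to be compared per length.

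The mice were 3 Hlx transgenic animals (TG), which carry the Hlx cDNA behind the aP2 (Fabp4) promoter, and 3 littermate controls without the transgene (WT), with 1 library per mouse. The transgene was injected into embryos of C57BL/6 × SJL hybrid mice and the lines were bred back to C57BL/6 for several generations. All 6 mice were 12 weeks old and labelled as male, and nothing was given to either group. The study sequenced this fat depot to learn how far it had taken on the expression pattern of brown fat, and the question taken up here is whether genes of cell division differed between the genotypes.

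Dividing cells transcribe these genes in waves. As cells enter S phase they make the MCM helicase (Mcm2 and Mcm5 are subunits of it) that opens DNA, the sliding clamp Pcna that holds polymerases on it and the small subunit of ribonucleotide reductase, Rrm2, that supplies deoxynucleotides. Towards mitosis they make the kinase Cdk1 with its cyclins Ccnb1 and Ccnb2, topoisomerase Top2a that untangles DNA, Birc5 (survivin) of the chromosomal passenger complex and Mki67, the protein that coats mitotic chromosomes and is stained as Ki-67. Mature adipocytes rarely divide, and in a fat depot such transcripts can also come from progenitors, endothelial cells, immune cells and, in female mice, mammary epithelium.

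Before the genes themselves, the libraries were compared with their labels. Hlx was 7.45 ± 0.637 FPKM (SD, n = 3) in WT and 96.2 ± 15.3 FPKM in TG, with no overlap. All 8 adipocyte markers were above 0 in every library. The labelled sex did not match: Xist, the RNA made from an inactive X chromosome, stood between 20.2 and 33.6 FPKM in the 6 libraries, while no library had a value above 0 at any of the 28 Y-linked loci. The 6 libraries were alike in this respect, so it does not separate the genotypes.

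The promoters of these genes are known for a shared set of short elements, and sequences of 5 of them are shown, chosen for how their transcripts varied between the mice. Mki67 and Top2a followed each other most closely, Cdk1 and Mcm5 stand for the mitotic and the replication wave, and Pcna varied least. The elements searched on both strands were the CCAAT box, the cell cycle genes homology region (CHR) and the E2F site. The CHR was searched as TTTGAA and also in the form TTTAAA. The E2F site was searched as TTTGGCG, then in the form TTTCCCG and finally in the form TTTCGCG. The second CHR form reads the same on both strands. All 10 genes were matched by symbol to RefSeq promoters of GRCm38.p6, the patched form of the build the files use. Each line gives the 200 bases directly before the annotated start, 5′ to 3′ on the strand of the gene, and the capitals mark the elements found on either strand.
Mki67, chr7:135716380-135716579, minus strand: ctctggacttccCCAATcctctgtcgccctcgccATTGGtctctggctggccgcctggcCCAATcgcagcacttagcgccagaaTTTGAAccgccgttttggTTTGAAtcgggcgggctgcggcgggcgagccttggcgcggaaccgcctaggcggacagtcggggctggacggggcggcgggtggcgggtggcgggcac
Top2a, chr11:99024190-99024389, minus strand: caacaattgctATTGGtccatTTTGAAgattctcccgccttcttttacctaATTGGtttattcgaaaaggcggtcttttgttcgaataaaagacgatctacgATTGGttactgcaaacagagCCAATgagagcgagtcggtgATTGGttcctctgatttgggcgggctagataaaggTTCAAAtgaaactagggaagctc
Cdk1, chr10:69352913-69353112, minus strand: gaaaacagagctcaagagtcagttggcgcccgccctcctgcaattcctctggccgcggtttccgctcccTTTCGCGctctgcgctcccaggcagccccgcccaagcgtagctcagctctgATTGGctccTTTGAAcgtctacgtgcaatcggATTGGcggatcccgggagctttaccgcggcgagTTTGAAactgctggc
Mcm5, chr8:75109309-75109508, plus strand: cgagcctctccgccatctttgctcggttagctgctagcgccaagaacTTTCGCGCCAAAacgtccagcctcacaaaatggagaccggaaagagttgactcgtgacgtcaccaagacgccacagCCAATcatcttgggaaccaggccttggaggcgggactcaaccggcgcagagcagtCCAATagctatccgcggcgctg
Pcna, chr2:132253181-132253380, minus strand: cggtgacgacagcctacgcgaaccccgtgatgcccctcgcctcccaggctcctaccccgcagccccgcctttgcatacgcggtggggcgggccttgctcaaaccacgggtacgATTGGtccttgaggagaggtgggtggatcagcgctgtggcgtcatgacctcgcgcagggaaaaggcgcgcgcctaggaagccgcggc

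Within the full window of 250 bases before to 50 bases after the start, 9 of the 10 promoters held a CHR match, against 27.6% of all 32851 promoters in the table. Pcna was the one without it. A CCAAT match was present in 9 of 10, against 37.4% of all promoters, and Birc5 was the one without it. An E2F match was present in Cdk1, Birc5 and Mcm5, 3 of 10, against 5.58% of all promoters. The 2 E2F matches of Mcm5 lie on opposite strands and overlap. Mki67 held 2 CHR matches, at 116 and 98 bases before its start, and Cdk1 held 2 at 71 and 15 bases before its start. These are matches of letters and not measured binding sites.

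The proliferation genes showed no call between the genotypes. Of the 8 tested, no gene was called higher in TG at an adjusted p under 0.05, against 11.6% of all tested loci, and none was called lower, against 7.03% (18.6% of all loci in either direction). None of the 8 had an unadjusted p under 0.05, which 36.2% of all loci reached, and none had genotypes that did not overlap, against 42.9% of all loci. Their log2 fold changes (TG minus WT, on log2(FPKM + 1), which understates the change of low genes) ran from -0.21 to 0.33. The median was 0.10, beside -0.01 over all tested loci. Of the 8 genes, 6 were above 0, beside 5663 of all 11692 tested loci. The adjusted p-values (limma, Benjamini-Hochberg over all tested loci) lay between 0.448 and 0.904. The intervals were wide for the mitotic genes, so changes of moderate size in either direction remain within them.

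**Figure D1:**
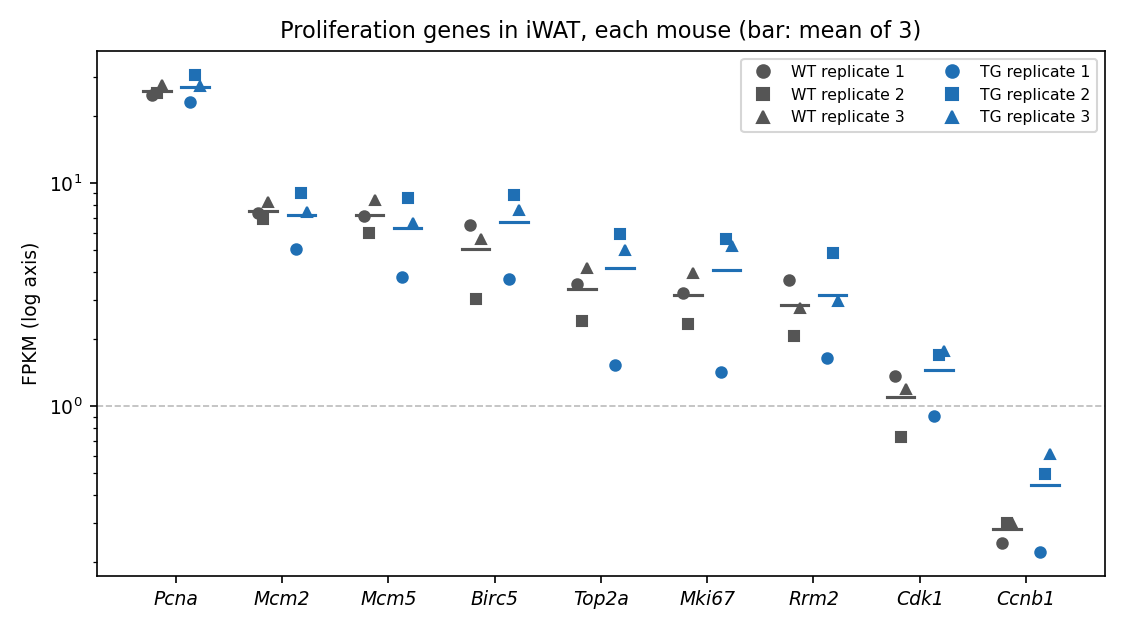
FPKM (log axis) of the 9 proliferation genes with a row of their own, in order of mean level, 1 symbol per mouse, with WT in grey and TG in blue, bars at the mean of 3 mice and a dashed line at 1 FPKM, the level used as the filter. TG replicate 1 has the lowest value for 7 of the 9 genes and TG replicate 2 the highest for 7.

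Of the genes of the replication wave, Pcna was the most abundant and the steadiest. Pcna (chr2:132249157-132261051) was 24.8, 25.4 and 27.4 FPKM in WT replicates 1 to 3 and 23.1, 30.6 and 27.3 FPKM in TG replicates 1 to 3. The TG mice held both the lowest and the highest value. The log2 fold change was 0.05 (SE 0.11, 95% interval -0.21 to 0.32, adjusted p = 0.758, limma). A further row of the table with the same symbol and locus had lower values, 6.18 to 10.1 FPKM, with a log2 fold change of -0.09 and an adjusted p of 0.704 in the same fit.

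Mcm2 and Mcm5 stood at similar levels, and both had the lower mean in TG. Mcm2 (chr6:88883474-88898780) was 7.32, 6.90 and 8.27 FPKM in WT and 5.08, 9.04 and 7.44 FPKM in TG. Mcm5 (chr8:75109527-75128439) was 7.13, 6.0 and 8.41 FPKM in WT and 3.78, 8.53 and 6.65 FPKM in TG. For both, TG replicate 1 was below all other mice and TG replicate 2 above all others, with the WT mice in between. The log2 fold change was -0.08 for Mcm2 (SE 0.18, 95% interval -0.51 to 0.35, adjusted p = 0.773) and -0.21 for Mcm5 (SE 0.25, 95% interval -0.80 to 0.38, adjusted p = 0.582). The 2 subunits kept a similar proportion in each mouse, since the ratio of Mcm2 to Mcm5 lay between 0.983 and 1.34.

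Rrm2 (chr12:24708254-24714146) was 3.69, 2.07 and 2.76 FPKM in WT and 1.64, 4.85 and 2.95 FPKM in TG. Again the first TG mouse was lowest and the second highest, and the third lay inside the WT range. The fitted log2 difference was 0.06 (SE 0.30, 95% interval -0.64 to 0.75, adjusted p = 0.904).

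Of the mitotic genes, Mki67 and Top2a had the widest spread among the TG mice. Mki67 (chr7:135689787-135716379) was 3.22, 2.33 and 3.95 FPKM in WT and 1.43, 5.64 and 5.23 FPKM in TG. One TG mouse was thus below all WT mice and the other 2 were above all of them. The highest TG value was 3.95 times the lowest, against 1.69 times in WT. The log2 fold change was 0.18 (SE 0.38, 95% interval -0.73 to 1.08, adjusted p = 0.768).

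Top2a (chr11:98992947-99024189) was 3.52, 2.40 and 4.16 FPKM in WT and 1.52, 5.94 and 5.02 FPKM in TG, with the mice in the same order as for Mki67 within each genotype. For Top2a the log2 fold change was 0.14 (SE 0.38, 95% interval -0.75 to 1.03, adjusted p = 0.818). The ratio of Mki67 to Top2a lay between 0.916 and 1.04 in the 6 mice, a 1.14-fold range, whereas the ratio of Mki67 to Pcna had a 3.11-fold range, from 0.0617 to 0.192.

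Birc5 (chr11:117849237-117855743) was 6.48, 3.02 and 5.64 FPKM in WT and 3.71, 8.88 and 7.57 FPKM in TG. Here the lowest mouse was WT replicate 2, with TG replicate 1 next above it, and the other 2 TG mice were again the highest. Its log2 fold change of 0.33 was the largest of the 8 (SE 0.33, 95% interval -0.45 to 1.11, adjusted p = 0.498).

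Cdk1 (chr10:69336635-69352912) was 1.37, 0.725 and 1.19 FPKM in WT and 0.905, 1.70 and 1.77 FPKM in TG. The order of the mice was close to that of Birc5, with WT replicate 2 lowest. Its log2 fold change was 0.22 (SE 0.20, 95% interval -0.24 to 0.69, adjusted p = 0.448).

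The cyclin partners of Cdk1 were measured poorly. Ccnb1 (chr13:100778739-100786486) was under the filter at 0.244, 0.30 and 0.301 FPKM in WT and 0.223, 0.496 and 0.613 FPKM in TG. Its TG mice again lay on both sides of the WT mice, and an exact two-sided permutation test gave p = 0.4, where 0.1 is the smallest value that 3 against 3 mice allow. Ccnb2 had no row of its own. It was listed only together with its neighbour Rnf111, a ubiquitin ligase, on 1 locus (chr9:70407689-70503725), which was 10.96, 10.4 and 10.4 FPKM in WT and 8.26, 11.9 and 11.8 FPKM in TG. The parts of the 2 genes in these values cannot be told apart.

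Single-gene exact permutation tests over the 20 arrangements of the mice gave p from 0.4 to 0.9 for the 8 tested genes. By mean over the 6 mice the levels fell from Pcna (26.4 FPKM) through Mcm2 (7.34), Mcm5 (6.75), Birc5 (5.88), Top2a (3.76), Mki67 (3.63), Rrm2 (3.00) and Cdk1 (1.28) to Ccnb1 (0.363). Pcna lay above Mcm2, Birc5 above Top2a, Rrm2 above Cdk1 and Cdk1 above Ccnb1 in 6 of 6 mice. The order of the other neighbours was less stable, with Mcm2 above Mcm5 and Top2a above Mki67 in 5 of 6 mice, and Mcm5 above Birc5 and Mki67 above Rrm2 in 4 of 6.

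**Figure D2:**
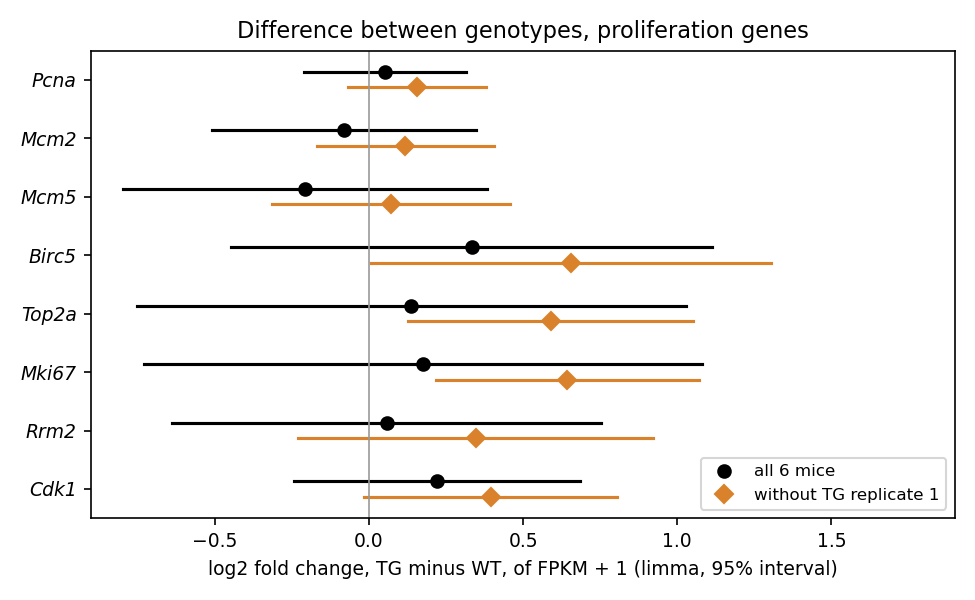
Log2 fold change (TG minus WT) of FPKM + 1 for the 8 tested proliferation genes, with 95% intervals from limma, for all 6 mice (black circles) and without TG replicate 1 (orange diamonds). With all mice every interval includes 0, and without TG replicate 1 those of Mki67, Top2a and Birc5 lie above 0. This mouse was the lowest TG mouse for all 8 genes, so leaving it out raises each difference by construction.

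The genes varied between mice of the same genotype more than most loci did. For each tested locus the spread within genotypes was taken as the residual SD of the fit, and the 8 genes had a median at the 95.3 percentile of all loci. Mki67 stood at the 98.2 percentile and Top2a at the 98.0 percentile, while Pcna, at the 54.1 percentile, was the one gene near the middle. The lowest of the 6 mice was TG replicate 1 for 6 of the 8 genes, against 25.4% of all tested loci, and WT replicate 2 for the other 2. The highest was TG replicate 2 for 7 of the 8, against 8.8% of all loci, and TG replicate 3 for Cdk1. On average over the 8 genes, TG replicate 1 lay 0.53 log2 units below the mean of the 6 mice (-0.53) and TG replicate 2 lay 0.44 above it. The WT mice had averages of 0.07, -0.30 and 0.11, and TG replicate 3 of 0.22.

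The size and the sign of the differences depended on single mice. The median log2 fold change of the 8 genes was -0.11 without TG replicate 2 and about 0 without WT replicate 2 (-0.0038) or TG replicate 3 (0.003). Without TG replicate 1, the mouse lowest for most of them, the log2 fold changes of all 8 genes were above 0, with a median of 0.37. In this fit 5675 of all 11707 loci were above 0. Still none of the 8 was called, against 7.79% of all loci called higher and 4.01% called lower. Mki67 had a log2 fold change of 0.64 (SE 0.17, adjusted p = 0.0677), Top2a 0.59 (adjusted p = 0.102), Birc5 0.66 (adjusted p = 0.165) and Cdk1 0.39 (adjusted p = 0.18). The unadjusted p of Mki67, Top2a and Birc5 was then under 0.05, 3 of the 8. The share of all loci was not computed for this fit and was 36.2% with all mice. TG replicate 1 was the lowest TG mouse for all 8 genes, so leaving it out raises each log2 fold change by construction. The genotypes did not overlap for these 4 genes, 4 of 8, which is close to the 49.5% of all loci that did not overlap without this mouse. The log2 fold changes of the replication genes were 0.12 for Mcm2, 0.07 for Mcm5, 0.16 for Pcna and 0.35 for Rrm2.

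Other measures set TG replicate 1 apart as well. Its summed FPKM over the lymphocyte markers was 216, against 312 to 436 in WT and 330 and 282 in TG replicates 2 and 3. All 9 tested lymphocyte markers were lowest in TG replicate 1, against 25.4% of all tested loci. Of these 9, 1 was called lower in TG, against 7.03% of all loci. Over the epithelial markers its sum was 135, against 227 to 315 in WT and 192 and 274 in TG replicates 2 and 3. There 8 of 9 markers were lowest in it, and none was called. By their sum, macrophage markers did not set it apart from TG replicate 3. By count, 8 of the 10 were lowest in TG replicate 1 and 2 in TG replicate 3, where 25.4% of all tested loci were lowest in TG replicate 1. Their sum was 614 in TG replicate 1, 636 in TG replicate 3 and 897 in TG replicate 2, against 1106 to 1518 in WT. Of the 10 macrophage markers, 5 were called lower in TG (Adgre1, Cd68, Csf1r, Cd163 and Lyz2), against 7.03% of all loci. The endothelial sum was nearly the same in all mice, 213 to 221 in WT and 214 to 227 in TG, but single endothelial markers differed in both directions. Of the 10, 2 were called higher and 1 lower in TG, against 11.6% and 7.03% of all loci. The log2 fold changes of these markers ran from -0.76 to 0.50, and the genotypes did not overlap for 6, against 42.9% of all loci. The progenitor and fibroblast sum ranged from 1399 to 1778 in WT and from 1158 (TG replicate 1) to 1592 in TG, with none called. The adipocyte sum went the other way and was highest in TG replicate 1. It was 34257 there, 31114 and 28909 in TG replicates 2 and 3, and 26260 to 33129 in WT. Of the 8 adipocyte markers, 4 were highest in TG replicate 1, beside 3540 of all 11692 tested loci. In TG 2 of the 8 were called lower, against 7.03% of all loci. None of the markers in this paragraph was listed at 0 in any library. In bulk tissue, fewer cells of a type and less RNA per cell cannot be told apart.

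The muscle markers had their own pattern, with a sum of 47.1 to 168 FPKM in WT and 156 to 693 FPKM in TG. All 9 tested were highest in TG replicate 2, against 8.8% of all loci, the mouse in which most of the proliferation genes were highest. Of these 9, 1 was called higher in TG, near the 11.6% of all loci. Myh4, a fast muscle myosin, was listed at 0 in WT replicate 1. The relative sequencing depth, set to 1 in WT replicate 3, was 0.714 in TG replicate 1, 1.14 in TG replicate 2 and 0.692 in TG replicate 3. The part of the marker levels and of depth in the result was not tested.

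**Figure D3:**
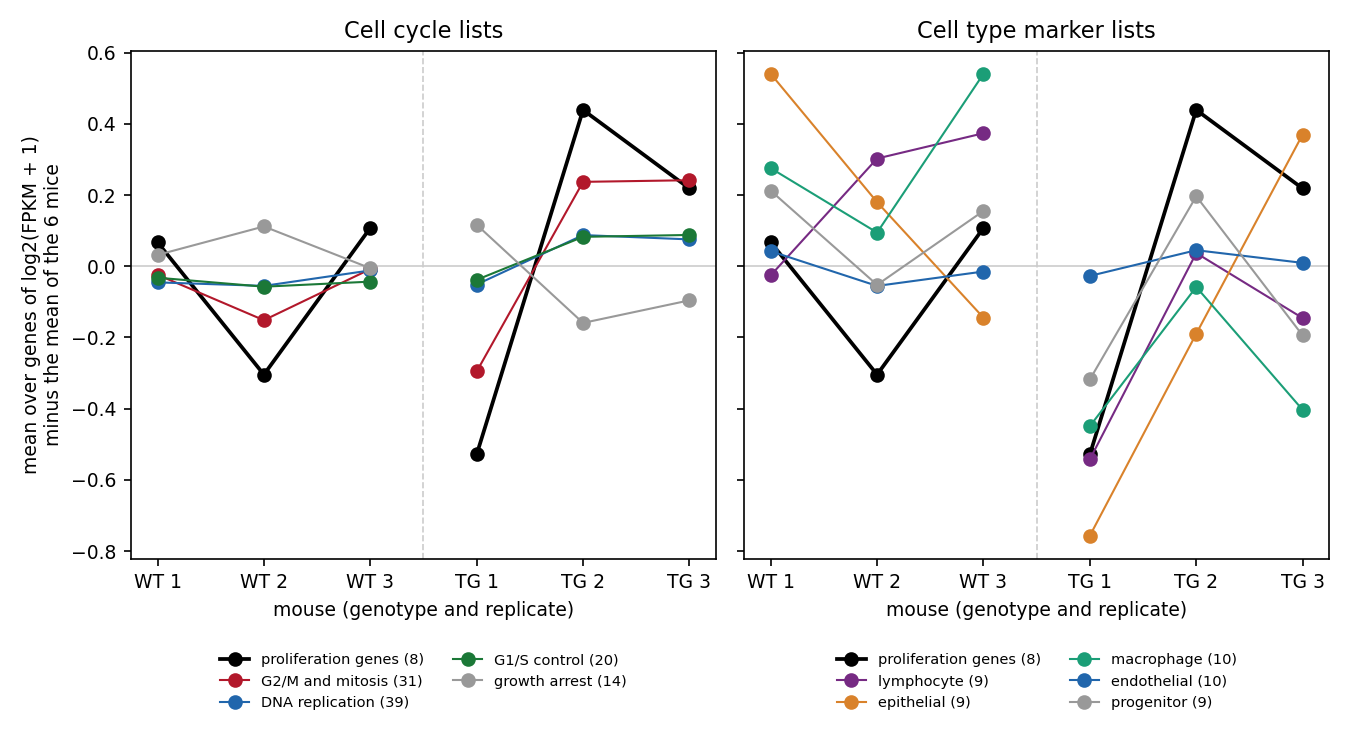
Mean over genes of log2(FPKM + 1) minus the mean of the 6 mice, by mouse, for the tested genes of each list (number in brackets), with the proliferation genes in black in both panels. The proliferation genes are at -0.53 in TG replicate 1 and 0.44 in TG replicate 2, and the lymphocyte, macrophage, epithelial and progenitor markers are also below 0 in TG replicate 1.

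The loci whose profile over the 6 mice was most like the average of the 8 genes were found by the root mean square difference of log2(FPKM + 1) after centring on each locus's mean. They were Aurkb (0.0875), Bmp7 (0.0909), Wfdc1 (0.0911), Kif20a (0.101), Bub1b (0.102), Lig1 (0.108), Tpx2 (0.110) and Cdca8 (0.112), where a locus with no variation at all would be at 0.324. Of these 8 loci, 6 are in the cell cycle lists described next, which hold 31, 39, 11, 20 and 14 of the 11692 tested loci. Bmp7 and Wfdc1 are in none of these lists. Aurkb, Kif20a, Bub1b, Tpx2 and Cdca8 are genes of the spindle, its checkpoint and the passenger complex, and Lig1 joins fragments of the newly made strand. Aurkb, the kinase of the passenger complex, was 1.61, 1.13 and 1.86 FPKM in WT and 0.777, 2.07 and 2.19 FPKM in TG. None of the 8 loci was called, with adjusted p from 0.404 (Cdca8) to 0.985 (Bub1b) in limma.

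The other genes of the pathway were read from 5 lists without the 10 genes. Of 45 genes of G2 and mitosis, 31 were tested, 12 were under the filter and 2 (Foxm1 and Ccnf) had only a locus shared with another gene. None was called in either direction, against 18.6% of all loci. The median log2 fold change was 0.19 and 23 of the 31 were above 0, beside 5663 of all 11692 tested loci. At an unadjusted p under 0.05 there were 2 (Mad2l1 and Cks2), against 36.2% of all loci. Mad2l1, a spindle checkpoint protein, came nearest to a call at 5.05, 4.98 and 5.26 FPKM in WT and 5.84, 7.68 and 7.46 FPKM in TG, with a log2 fold change of 0.38 and an adjusted p of 0.0514 (limma). The genotypes did not overlap for 5 of the 31, against 42.9% of all loci.

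The mitosis list was also low in TG replicate 1, the lowest mouse for 18 of the 31 (58.1%, against 25.4% of all loci). At the top its order was another, with TG replicate 3 highest for 16 and TG replicate 2 for 10. Counting also the genes under the filter, TG replicate 1 was lowest for 28 of 43. Without TG replicate 1, the median was 0.31 and 32 of 35 tested genes were above 0, beside 5675 of all 11707 loci. The filter was applied again in this fit, so the tested list grew from 31 genes to 35. The added genes passed only through a TG mean above 1 FPKM, which favours a difference above 0. In this fit 2 genes were called higher, against 7.79% of all loci. They were Mad2l1 (0.49, adjusted p = 0.0169) and Nusap1 (0.56, adjusted p = 0.0298), a protein of spindle microtubules.

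**Figure D4:**
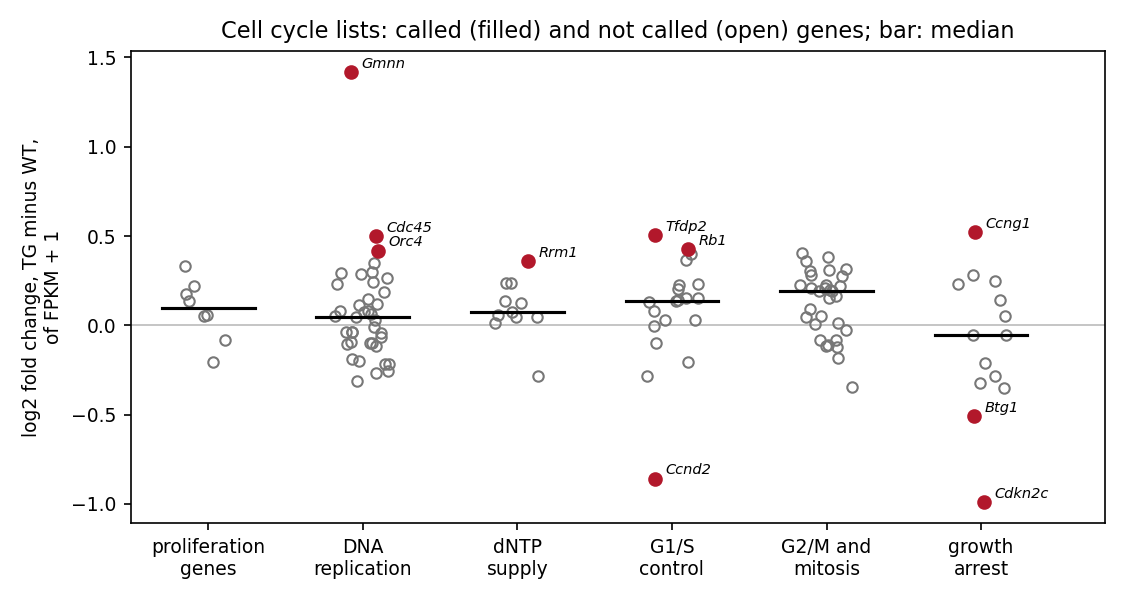
Log2 fold change (TG minus WT) of FPKM + 1 for the tested genes of the 10 proliferation genes and of 5 cell cycle lists, with filled symbols for an adjusted p under 0.05 (limma), open symbols for the rest and a bar at the median of each list. The 10 called genes are spread over the replication, dNTP supply, G1/S and growth arrest lists, with none among the proliferation genes or in the mitosis list.

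Of 42 genes of replication licensing and the fork, 39 were tested, 3 were called higher and none lower, against 11.6% and 7.03% of all loci. The median difference was 0.05 on the log2 scale, and 21 of the 39 were above 0, beside 5663 of all 11692 tested loci. The largest change was that of Gmnn, geminin, which blocks a second licensing of origins by binding Cdt1. Gmnn was 4.60, 3.59 and 3.997 FPKM in WT and 12.3, 10.8 and 14.5 FPKM in TG. Every TG mouse, TG replicate 1 included, was above every WT mouse. Its log2 fold change was 1.42 (SE 0.13, adjusted p = 0.000935). Cdc45, which activates the MCM helicase, rose from 4.35 ± 0.311 to 6.56 ± 0.529 FPKM (log2 fold change 0.50, adjusted p = 0.0125), and its locus overlaps that of Ufd1l. Orc4, a subunit of the origin recognition complex, was 9.54 ± 0.569 FPKM in WT and 13.1 ± 1.67 FPKM in TG (0.42, adjusted p = 0.0352), a call lost in 8 of 16 alternative settings, on a locus that overlaps Acvr2a and Mbd5.

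All 11 genes of deoxynucleotide supply were tested, and 1 was called higher, a share near the 11.6% of all loci. This was Rrm1, the large subunit of ribonucleotide reductase and the partner of Rrm2. Rrm1 was 8.35, 7.78 and 8.98 FPKM in WT and 10.4, 11.1 and 11.5 FPKM in TG, without overlap, where Rrm2 had overlapping groups. The log2 fold change of Rrm1 was 0.36 (SE 0.08, adjusted p = 0.0265), and the call was lost in 5 of 16 alternative settings. Whether Rrm1 and Rrm2 differed in their response was not tested.

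Of 25 genes that control the step from G1 to S phase, 20 were tested, 2 were called higher and 1 lower, shares near the 11.6% and 7.03% of all loci. Ccnd2, cyclin D2, which activates Cdk4 and Cdk6, was 52.2, 51.8 and 48.3 FPKM in WT and 24.3, 29.6 and 29.0 FPKM in TG. It fell in every TG mouse, with a log2 fold change of -0.86 (SE 0.10, adjusted p = 0.00207). Tfdp2, the dimer partner of E2F factors, was 5.19 ± 0.176 FPKM in WT and 7.85 ± 1.32 FPKM in TG (0.51, adjusted p = 0.0265). Rb1, the pocket protein that holds E2F factors inactive, was 19.8 ± 0.641 FPKM in WT and 27.1 ± 3.34 FPKM in TG (0.43, adjusted p = 0.031), on a locus that overlaps Lpar6 and Mir687. The calls of Tfdp2 and Rb1 were lost in 6 and 7 of 16 alternative settings.

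Of 15 CDK inhibitors and growth arrest genes, 14 were tested, 1 was called higher and 2 lower, 3 in all, near the 18.6% of all loci called in either direction. The list's median difference was -0.05 on the log2 scale. Cdkn2c (p18, an inhibitor of Cdk4 and Cdk6) was 189, 195 and 126 FPKM in WT and 78.8, 99.2 and 75.3 FPKM in TG, with a log2 fold change of -0.99 (SE 0.19, adjusted p = 0.015). The call of Cdkn2c was lost without TG replicate 3 (adjusted p = 0.0575) and at the stricter threshold of 0.01. Btg1, an antiproliferative gene, fell from 38.2 ± 2.77 to 26.5 ± 1.26 FPKM (-0.51, adjusted p = 0.00836). Ccng1, cyclin G1, a target of p53, rose from 47.1 ± 0.854 to 68.1 ± 2.41 FPKM (0.52, adjusted p = 0.00414). Cdkn2c was above all 9 proliferation genes in level in every mouse. Of the 14 tested genes, the genotypes did not overlap for 6, these 3 among them, against 42.9% of all loci.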

How the data were processed

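RNA was extracted from iWAT of 3 TG and 3 WT mice, and single-end reads of 100 bases were sequenced from TruSeq libraries. Per the labels and the methods of the study, the authors mapped reads to mm10 with TopHat2 2.0.9 and Bowtie2 2.1.0 after CASAVA 1.8.2, and quantified genes with Cufflinks 2.2.1. The authors deposited FPKM for each gene and mouse. Cufflinks options and annotation are not given in the sources used here. FPKM values depend on the transcripts assembled and on how reads are shared between overlapping genes.

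Groups were taken from the sample labels. From the FPKM, log2(FPKM + 1) was computed for loci with a mean above 1 FPKM in at least 1 genotype, and TG was compared with WT in limma 3.58.1 (R 4.3.3). The fit used lmFit and eBayes with trend and had no covariates, and its two-sided p-values were adjusted by Benjamini-Hochberg over 11692 loci, with a threshold of 0.05. Single genes were also tested by exact permutation of 20 arrangements. Spreads are SD over 3 mice. The limma p-values set the difference between genotypes against the variation between mice, moderated over all tested loci. In simulated data with the observed means and spreads (11541 genes), 95% of the 3-fold changes and 87% of the 2-fold changes were recovered. The changes were placed in few loci, all of higher mean level, and Mki67, Top2a, Rrm2 and Cdk1 lie below that level. These rates are not split by spread between mice. Recovery at the levels and spreads of the proliferation genes was not tested. Read counts cannot be rebuilt, since only 12.5% to 15.3% of low values in the 5 libraries other than the reference, WT replicate 3, fell on the steps that whole reads would give, and absolute depth is unknown. Relative depth from these steps was 0.692 to 1.41. Locus starts, which the table counts from 0, were raised by 1.

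The 10 genes, the cell cycle lists and the marker lists were chosen with earlier results of these data known. Besides the 10 genes, those named are up to 5 called genes per direction in each cell cycle list with the largest change. The 8 loci nearest in profile, Hlx, Xist and genes with a shared or overlapping locus are named too. Mad2l1, Cks2, Nusap1, Samhd1, Cdt1, Myh4 and the 5 called macrophage markers were named after their values were seen. The replicate numbers of the labels number different animals. The correlations of deviations between same-numbered mice were 0.0129, 0.0344 and 0.0701, so they were not treated as pairs. The alternatives were another pseudocount (0.1), other filters, median-ratio and quantile scaling, sample quality weights, eBayes without trend, the replicate block, loci of a symbol added, stricter calls (0.01) and each mouse left out. Figures were drawn with matplotlib 3.10.9 in Python 3.11.15.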

Additional observations from a re-analysis of the deposited data

How the results depend on the processing

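None of the 8 tested proliferation genes was called in any of the 16 alternative settings, and the lowest adjusted p was 0.0677 (Mki67 without TG replicate 1). The stricter threshold of 0.01 reuses the main fit, so it could add no call. Signs were less stable. The log2 fold change turned for Mcm2 with sample quality weights (0.017) and without TG replicate 1 (0.12), for Mcm5 without TG replicate 1 (0.072), for Mki67 without TG replicate 2 (-0.082) or 3 (-0.04), for Top2a without WT replicate 2 (-0.03), TG replicate 2 (-0.14) or TG replicate 3 (-0.04), for Rrm2 without WT replicate 2 (-0.09) or TG replicate 2 (-0.23), and for Pcna without TG replicate 2 (-0.039). Leaving out 1 mouse at a time, differences on the log2 scale ran from -0.08 to 0.64 for Mki67, -0.14 to 0.59 for Top2a, -0.24 to 0.12 for Mcm2, -0.43 to 0.07 for Mcm5, -0.04 to 0.16 for Pcna, -0.23 to 0.35 for Rrm2, 0.06 to 0.66 for Birc5 and 0.09 to 0.39 for Cdk1, and their median from -0.11 to 0.37. The count of mitosis genes called higher (0) became 1 with a pseudocount of 0.1 or quantile normalization (Mad2l1), 2 with sample quality weights (Mad2l1 and Nusap1) and 0 to 2 with a mouse left out. The count of G1/S genes called higher (2) became 1 without a filter and 0 at an adjusted p under 0.01, and 0 to 2 with a mouse left out. At that stricter threshold, calls fell to 1 replication gene higher, 0 deoxynucleotide genes higher and 1 growth arrest gene lower. With a mouse left out, the deoxynucleotide list had 0 to 1 higher and 0 to 1 lower (Samhd1 without TG replicate 2), the replication list 2 to 4 higher and 0 to 1 lower (Cdt1 without TG replicate 2), and the growth arrest list 1 to 3 lower. The cause of these changes was not tested. Gmnn, Ccnd2, Ccng1 and Btg1 kept their calls in all 16 settings.

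With the replicate number as a block, G1/S genes called higher fell to 1, and Orc4 (adjusted p = 0.0547) and Rb1 (0.0542) were no longer called. The numbers do not pair the mice, and not every mouse correlated best with its own number. It changed no other call among the named genes and lists.

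FPKM carries no read counts, so genes near 1 FPKM such as Cdk1 and Ccnb1 have a precision that these values do not show.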
